A study of Homo sapiens with 2 samples.

Results

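The cytochrome P450 (CYP), UDP-glycosyltransferase (UGT), glutathione S-transferase (GST and MGST) and sulfotransferase (SULT) genes make the enzymes that oxidise drugs, steroids and fatty acids and then couple them to sugars, glutathione or sulfate. Members were taken by symbol: probe sets that the platform annotation gives exactly 1 symbol of these families, without CYP51A1, which makes cholesterol, and without pseudogenes and antisense genes. The rule found 83 genes among 19775 genes named by at least 1 such probe set, and they were read by 155 probe sets. They comprise 48 CYP, 9 UGT, 15 GST, 3 MGST and 8 SULT genes. Each gene is represented by the probe set that was brightest on average, by mean log2 intensity over both arrays.

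Expression was measured on 1 single-colour Affymetrix array per group in SW620, an established human colorectal cancer line taken from a lymph node, grown in RPMI-1640. In the SOX2 knockdown culture a short hairpin RNA delivered by lentivirus targeted SOX2, and in the mock knockdown culture the hairpin had no target. The labels give neither an age of the cultures nor whether they came from 1 clone, nor how many hairpins were used. With 1 array a group, no difference could be tested, and the small number of arrays limits how precisely anything here is known.

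P450 enzymes are haem proteins that insert oxygen into their substrates with electrons from a reductase, and many of them are switched on by ligand-bound receptors such as AHR and the nuclear receptors that pair with RXRA. UGT enzymes take a sugar from a UDP-sugar, SULT enzymes take sulfate from the donor PAPS, and GST enzymes use glutathione. In the gut these enzymes form part of the barrier to swallowed chemicals, with CYP3A and UGT1A enzymes among those known from the intestinal lining and GSTP1 from colorectal tumours.

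Intensities had a median of 68.1 on the SOX2 knockdown array and 69.0 on the mock array. A floor was set at 68.5, the median over both arrays, and a gene was counted as measured when its higher value reached it. SOX2 stood at 20.9 on the SOX2 knockdown array against 2077 on the mock array at its brightest probe set, at least 30.3-fold lower against the floor, while its other probe sets differed by -1.47, -0.42 and -0.06 on the log2 scale. Of 9 colorectal epithelium markers, 9 reached the floor on the SOX2 knockdown array and 8 on the mock array. VIL1, at 867 on the SOX2 knockdown array against 2063 on the mock array, was lower, and the other 8 were higher, several of them by little. Of the 9, 4 lay within 1.5-fold, against 70.2% of all genes that reached the floor. CDH17, the only one at least 2-fold higher as deposited, had 78.0 on the SOX2 knockdown array against 35.5 on the mock array. Against the floor it was at least 1.14-fold higher. Of 6 fibroblast markers, 3 reached the floor on the SOX2 knockdown array and 4 on the mock array. Of 4 endothelium markers, 2 reached it on each array, so reaching the floor does not by itself name a cell type. A description label names mouse liver, and the hepatocyte genes ALB, CPS1, FGB and APOA2 lay under the floor on both arrays, while APOA1, TTR, SERPINA1, TF and AHSG reached it on both. The 9 hepatocyte markers summed to 4868 on the SOX2 knockdown array and 864 on the mock array, of which SERPINA1 held 4301 and 313. The 5 leukocyte markers summed to 12031 on the SOX2 knockdown array and 438 on the mock array, of which LYZ held 11691 and 213. CD14 stood at 156 on the SOX2 knockdown array against 43.6 on the mock array, at least 2.28-fold higher, ITGAM at 103 on both, and PTPRC and CD3E under the floor on both. The part of these genes in the differences below was not tested. In bulk RNA, fewer cells of a type and less RNA per cell cannot be told apart.

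The sequences below are promoters of members that differed by at least 2-fold, as far as the promoter table holds them; CYP1B1 and MGST2 are not among them. They are shown with CYP3A4 and CYP1A1 beside them as close relatives that did not. Each is the 250 bases before the most upstream start of the gene, from RefSeq on GRCh38.p14, written 5′ to 3′ on the strand of the gene. Capitals mark the letters of 4 motifs searched on both strands: GCGTG, the core bound by AHR and its partner ARNT, TGACNNNGC, the core of the antioxidant response element, and ACAATG and ACAAAG, short SOX-type cores. None of the 4 motifs overlaps another in these windows. The windows lie at chr4:114598152-114598401 (plus strand), chr19:48551922-48552171 (plus), chr7:99679997-99680246 (minus), chr7:99735197-99735446 (minus), chr7:99784185-99784434 (minus), chr15:74725529-74725778 (minus), chr1:59926774-59927023 (minus) and chr2:108377704-108377953 (plus).
UGT8: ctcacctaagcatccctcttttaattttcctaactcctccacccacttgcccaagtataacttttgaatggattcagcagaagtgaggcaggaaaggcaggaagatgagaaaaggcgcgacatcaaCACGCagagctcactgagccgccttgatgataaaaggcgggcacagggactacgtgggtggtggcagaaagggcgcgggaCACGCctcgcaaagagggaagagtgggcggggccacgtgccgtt
SULT2B1: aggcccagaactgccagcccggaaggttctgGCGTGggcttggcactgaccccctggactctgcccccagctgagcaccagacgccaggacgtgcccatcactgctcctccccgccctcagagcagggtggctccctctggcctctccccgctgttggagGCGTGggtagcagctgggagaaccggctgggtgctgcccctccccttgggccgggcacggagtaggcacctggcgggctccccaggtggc
CYP3A5: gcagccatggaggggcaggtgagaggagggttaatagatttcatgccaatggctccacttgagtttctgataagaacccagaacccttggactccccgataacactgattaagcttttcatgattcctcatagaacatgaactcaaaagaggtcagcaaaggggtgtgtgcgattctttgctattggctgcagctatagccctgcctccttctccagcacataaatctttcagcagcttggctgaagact
CYP3A7-CYP3A51P: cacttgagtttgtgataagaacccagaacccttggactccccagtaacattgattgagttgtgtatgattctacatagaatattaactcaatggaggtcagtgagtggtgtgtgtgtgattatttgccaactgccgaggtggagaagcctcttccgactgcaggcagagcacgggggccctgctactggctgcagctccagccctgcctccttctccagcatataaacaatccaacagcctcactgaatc
CYP3A4: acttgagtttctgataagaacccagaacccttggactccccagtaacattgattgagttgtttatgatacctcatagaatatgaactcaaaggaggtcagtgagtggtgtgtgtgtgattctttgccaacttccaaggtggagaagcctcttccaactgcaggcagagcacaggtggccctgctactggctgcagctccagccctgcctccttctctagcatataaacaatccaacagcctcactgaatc
CYP1A1: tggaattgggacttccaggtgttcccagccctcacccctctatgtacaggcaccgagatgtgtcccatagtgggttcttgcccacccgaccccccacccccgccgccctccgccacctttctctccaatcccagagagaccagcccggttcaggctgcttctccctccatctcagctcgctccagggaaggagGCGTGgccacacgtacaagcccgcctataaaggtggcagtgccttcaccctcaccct
CYP2J2: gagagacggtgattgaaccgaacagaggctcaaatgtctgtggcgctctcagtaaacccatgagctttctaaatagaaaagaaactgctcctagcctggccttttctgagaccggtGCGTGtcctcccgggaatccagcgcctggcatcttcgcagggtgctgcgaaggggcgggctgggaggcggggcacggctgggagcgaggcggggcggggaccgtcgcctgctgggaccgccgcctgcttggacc
SULT1C4: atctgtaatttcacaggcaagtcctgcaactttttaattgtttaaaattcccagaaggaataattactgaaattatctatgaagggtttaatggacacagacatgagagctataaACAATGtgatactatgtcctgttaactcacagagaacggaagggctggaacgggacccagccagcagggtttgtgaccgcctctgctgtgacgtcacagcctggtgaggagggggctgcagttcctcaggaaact

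The letters GCGTG occurred 2 times in the printed window of UGT8, 2 times in that of SULT2B1 and 1 time in those of CYP1A1 and CYP2J2, and were not in the windows of the CYP3A genes. Of the further windows of UGT8, not printed, another also held 2 copies and the last held no copy. The letters GCGTG were found in 32.2% of the 35116 windows of the whole table. Among the 83 windows of the 63 members that the table holds, where a gene can have several, the share was 22.9%. ACAATG occurred 1 time among the printed windows, in SULT1C4, and in 4.82% of member windows against 9.29% of all. ACAAAG was found in 14.5% of member windows against 13.7% of all, and TGACNNNGC in 13.3% against 10.9%. A match of letters is a description and shows no binding.

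Across the families, 50 of the 83 genes, or 60.2%, reached the floor on at least 1 array, against 68.8% of all genes. On both arrays 40 members reached it. Of the 50, the SOX2 knockdown array was at least 2-fold higher in 6 and at least 2-fold lower in 2. Over all 13609 genes that reached the floor, 8.44% were at least 2-fold higher and 7.29% at least 2-fold lower, against 12.0% and 4.0% of the measured members, a difference of a few genes that says nothing about the families as a whole. The counts by family, role or list below rest on fewer genes each and are to be read beside the same shares over all genes. The median log2 difference, SOX2 knockdown minus mock, was 0.06 for the members and -0.0063 for all genes, and 36 members, or 72.0%, lay within 1.5-fold against 70.2% of all genes. The higher members were CYP1B1, CYP3A5, CYP3A7-CYP3A51P, UGT8, SULT2B1 and MGST2, and the lower ones CYP2J2 and SULT1C4. Only MGST2 and SULT2B1 of these 8 were at or over the floor on both arrays. A member that passes the floor through its brighter array alone is bound to differ, so the folds of the other 6 are given against the floor, as bounds.

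**Figure D1:**
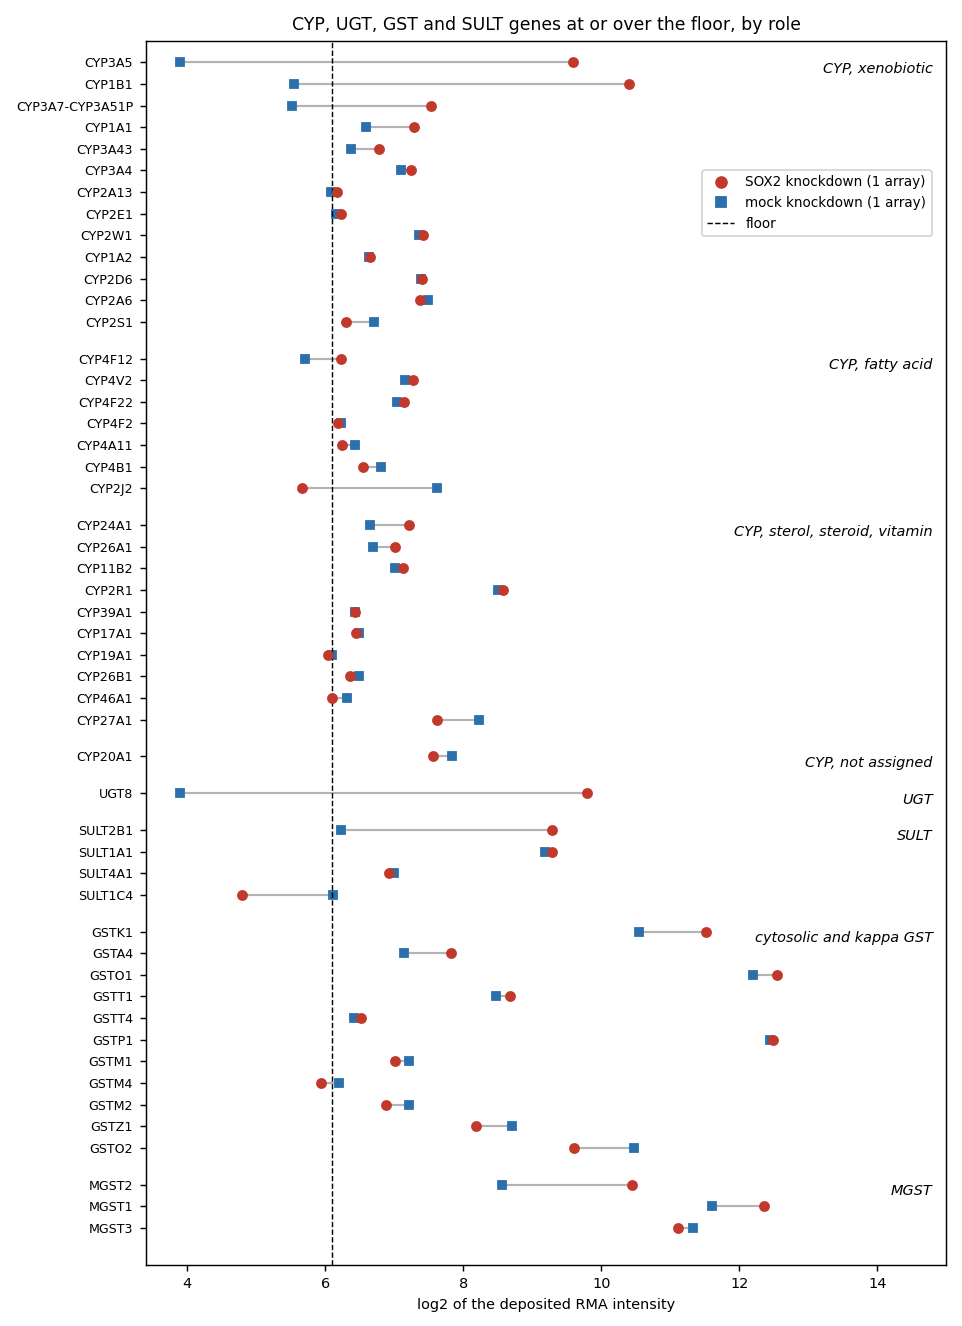
The horizontal axis gives the log2 of the deposited RMA intensity for the 50 members that reached the floor, grouped by role, with red circles for the SOX2 knockdown array, blue squares for the mock array and the dashed line at the floor of 6.10. Most pairs lie close together, and the long lines belong to CYP3A5, CYP1B1, CYP3A7-CYP3A51P, CYP2J2, UGT8, SULT2B1, SULT1C4 and MGST2.

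Among the 17 P450 genes of foreign compounds, 13 reached the floor, 3 of them were at least 2-fold higher and 0 at least 2-fold lower. Over all genes the shares were 8.44% and 7.29%, and counts out of 13 genes say little about the role as a whole. CYP1B1, which oxidises oestrogens and polycyclic hydrocarbons and is switched on through AHR, had an intensity of 1353 on the SOX2 knockdown array against 46.6 on the mock array, at least 19.8-fold higher. Its further probe sets read 832 against 30.1 and 551 against 9.13, and the fourth lay under the floor on both arrays at 56.5 against 53.9. The probe sets of CYP1B1 that reached the floor did so only through the SOX2 knockdown array. They were therefore bound to be higher there, and their agreement in direction is no separate result.

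CYP1A1, the textbook AHR target, stood at 156 on the SOX2 knockdown array against 96.2 on the mock array, a log2 difference of 0.70. CYP1A2, a liver enzyme of the same subfamily, read 101 against 99.6. Of the 3 CYP1 genes, CYP1B1 passed 2-fold, whereas CYP1A1 and CYP1A2 did not. Both values of CYP1A2 and the mock value of CYP1A1 lay under 127, the 95th percentile of olfactory receptor probe sets given below. The other probe set of CYP1A2 lay under the floor on both arrays, at 49.3 against 51.1. Values this dim cannot show whether the 3 genes moved together.

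CYP3A5, a drug and steroid oxidase of gut, kidney and liver, had 774 on the SOX2 knockdown array against 14.9 on the mock array, at least 11.3-fold higher. Its other probe sets read 516 against 21.8 and 553 against 12.6, and the last, under the floor on both arrays, differed by 1.33 on the log2 scale. The CYP3A5 probe sets that reached the floor did so only through the SOX2 knockdown array. They were bound to be higher there, so their agreement in direction is no separate result. CYP3A7-CYP3A51P, a readthrough transcript from CYP3A7, the fetal liver enzyme, into a neighbouring pseudogene, read 185 against 46.0, at least 2.70-fold higher. It was read by 1 probe set of the kind that can match several transcripts, so signal from other CYP3A genes cannot be told apart from its own.

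The CYP3A genes lie side by side on chromosome 7, and those further along differed by less. CYP3A4, the main drug-oxidising P450 of liver and gut, had 151 on the SOX2 knockdown array against 137 on the mock array, and its 5 probe sets ranged from -0.17 to 0.73 on the log2 scale. CYP3A43 had 109 against 82.7, a log2 difference of 0.40. The promoter windows printed above for CYP3A7-CYP3A51P and CYP3A4 were 94.0% identical over an alignment of 251 columns, of which 2 were gaps. That of CYP3A5 was 51.8% and 52.6% identical to them over 307 and 308 columns, of which 114 and 116 were gaps. Gaps count as not identical. The stretch that opens the other windows lies further inside that of CYP3A5, so its lower percentages partly reflect where the windows begin.

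The remaining P450 genes of foreign compounds showed small differences. CYP2W1, a P450 known from colorectal tumours, had 170 on the SOX2 knockdown array against 164 on the mock array, and CYP2D6, a liver drug oxidase, 169.8 against 168.3. CYP2S1, an epithelial P450, read 78.7 against 105, a log2 difference of -0.41. CYP2A6, CYP2A13 and CYP2E1 lay within 0.12 of 0. CYP2A7, CYP2B6, CYP2C8 and CYP2F1 stayed under the floor on both arrays.

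Of 13 P450 genes that act on fatty acids and their derivatives, 7 reached the floor, 0 were at least 2-fold higher and 1 was at least 2-fold lower. CYP2J2, which turns arachidonic acid into epoxides, had 50.5 on the SOX2 knockdown array against 197 on the mock array, at least 2.88-fold lower. CYP2J2 has 1 probe set here, so no other probe set of the gene could be compared. The CYP4 genes, which hydroxylate the end of fatty acid chains, differed little: CYP4B1 had a log2 difference of -0.26, and CYP4A11, CYP4F2, CYP4F22 and CYP4V2 lay within 0.19 of 0. CYP4F12 had 74.7 on the SOX2 knockdown array against 52.0 on the mock array, at least 1.09-fold higher. The used probe set of CYP4V2 read 154 against 143, while others of its probe sets read 66.2 against 113 and 75.6 against 102, so its direction depended on the probe set.

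Of 17 P450 genes of sterols, steroids and vitamins, 10 reached the floor and 0 passed 2-fold either way. CYP27A1, which oxidises the side chain of cholesterol, had 196 on the SOX2 knockdown array against 299 on the mock array, a log2 difference of -0.61. CYP24A1, which inactivates vitamin D, had 149 against 101, a log2 difference of 0.56, and CYP2R1, which starts the activation of vitamin D, had 383 against 362. CYP27B1, which completes that activation, lay under the floor on both arrays at 65.3 against 29.8. CYP26A1, which breaks down retinoic acid, had 129 against 103. The steroid enzymes CYP11B2, CYP17A1 and CYP19A1, the retinoic acid enzyme CYP26B1 and the oxysterol and cholesterol hydroxylases CYP39A1 and CYP46A1 ran from -0.21 to 0.13 on the log2 scale. The bile acid enzymes CYP7A1, CYP7B1 and CYP8B1 lay under the floor on both arrays. CYP20A1, with no assigned substrate, had 190 against 228.

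Of the 9 UGT genes read by probe sets of their own, 1 reached the floor. UGT8, which adds galactose to ceramide and makes the galactolipids of myelin, had 892 on the SOX2 knockdown array against 14.9 on the mock array, at least 13.0-fold higher. Its other probe set read 316 against 30.9, at least 4.61-fold higher. The 8 other UGT genes lay under the floor on both arrays: UGT1A1 at 48.1 against 51.8, UGT1A6 at 43.1 against 20.2, and UGT2A3, UGT2B4, UGT2B15, UGT2B17, UGT2B28 and UGT3A1 within 0.21 of 0 on the log2 scale.

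Those values do not describe the UGT1A locus as a whole. The UGT1A genes share their last exons, and 7 probe sets are annotated to between 5 and 9 of them at once, which keeps them out of the gene values. All 7 were higher on the SOX2 knockdown array, where they ran from 148 to 4376, against 13.1 to 180 on the mock array. In 4 of them both arrays were at or over the floor, and the SOX2 knockdown array was 17.4-fold, 19.3-fold, 23.1-fold and 38.3-fold higher. In the other 3 the mock value lay under the floor, and the SOX2 knockdown array was at least 2.16-fold, 8.27-fold and 63.9-fold higher. Which UGT1A gene gave this signal cannot be told from probe sets that match several.

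**Figure D2:**
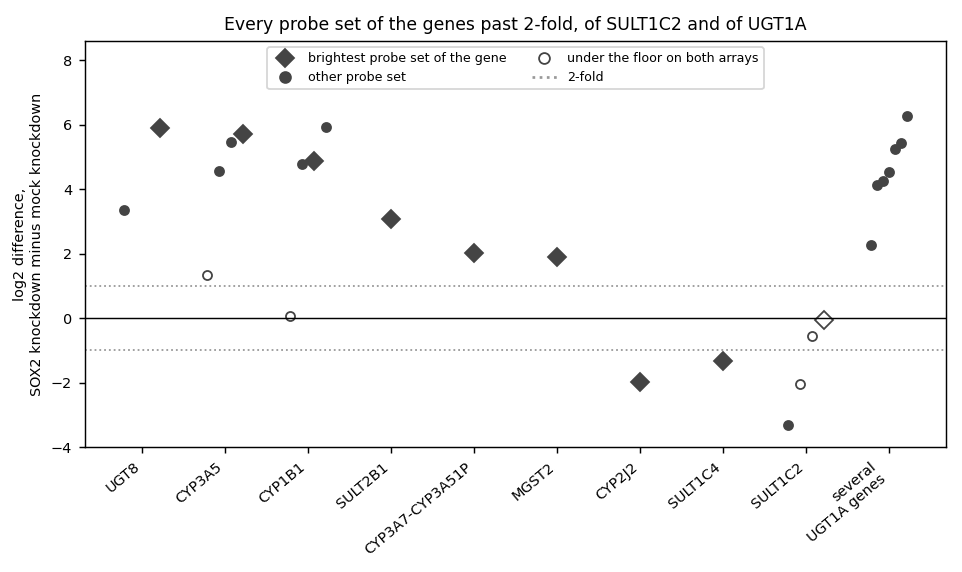
The vertical axis gives the log2 difference, SOX2 knockdown minus mock, of every probe set of the 8 members past 2-fold, of SULT1C2 and of the UGT1A locus, with diamonds for the brightest probe set of a gene, circles for others, open symbols for probe sets under the floor on both arrays and dotted lines at 2-fold. Differences are drawn as deposited, also where 1 array lies under the floor, so that the 3 UGT1A probe sets with a mock value under it and the SULT1C2 probe set at -3.31 are drawn further from 0 than their bounds. All 7 UGT1A probe sets lie above the upper dotted line, and the brightest probe set of SULT1C2 lies near 0.

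Of 8 SULT genes, 4 reached the floor, 1 at least 2-fold higher and 1 at least 2-fold lower. SULT2B1, which sulfates cholesterol and hydroxysteroids, had 624 on the SOX2 knockdown array against 74.8 on the mock array, 8.34-fold higher, though the mock value was close to the floor of 68.5. SULT1C4, a sulfotransferase known mainly from fetal tissues, had 27.7 against 69.0, which is -1.32 on the log2 scale. With a mock value barely over the floor, SULT1C4 was at least 1.01-fold lower as a bound, and the 2-fold call rests on a value under the floor.

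SULT1C2, the neighbour of SULT1C4 among the members on chromosome 2, did not count as measured, since its brightest probe set by mean read 65.2 on the SOX2 knockdown array against 68.2 on the mock array. Another of its 4 probe sets read 9.54 against 94.4, a log2 difference of -3.31 as deposited but only at least 1.38-fold lower against the floor, and a further one, under the floor on both, read 9.62 against 39.9. SULT1A1, the main phenol sulfotransferase, had 623 against 584, and SULT4A1, a brain form, had 122 against 127. SULT1B1, SULT1E1 and SULT2A1 lay under the floor on both arrays.

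Of 15 cytosolic and kappa GST genes, 11 reached the floor and 0 passed 2-fold either way. GSTK1, the kappa enzyme of mitochondria and peroxisomes, came nearest, with 2931 on the SOX2 knockdown array against 1490 on the mock array, a log2 difference of 0.98. GSTP1, the pi-class enzyme of colorectal tumours, had 5751 against 5569, a log2 difference of 0.05. GSTA4, which clears aldehydes from oxidised lipids, had 226 against 141, while a further probe set under the floor on both arrays read 32.7 against 37.7.

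The omega enzymes GSTO1 and GSTO2, which reduce dehydroascorbate, are neighbours on chromosome 10. Their differences had opposite signs, though that of GSTO1 was only 1.27-fold. GSTO1 had 5981 on the SOX2 knockdown array against 4703 on the mock array, and its second probe set 4991 against 3848. GSTO2 had 779 against 1423, a log2 difference of -0.87, and its second probe set 56.7 against 71.7, at least 1.05-fold lower. GSTZ1, an enzyme of tyrosine breakdown, had 290 against 418. GSTT1, of the theta class, had 408 against 356, and GSTT4, of the same class, 91.9 against 85.5. The mu-class genes GSTM1, GSTM2 and GSTM4 had log2 differences of -0.20, -0.32 and -0.26; they are close copies of each other, and their probe sets may share signal.

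All 3 MGST genes, which encode glutathione enzymes embedded in membranes, reached the floor on both arrays. MGST2, which can also make a cysteinyl leukotriene, had 1398 on the SOX2 knockdown array against 378 on the mock array, 3.69-fold higher. MGST1, the enzyme of the endoplasmic reticulum and outer mitochondrial membrane, had 5248 against 3121, a log2 difference of 0.75, and its 4 other probe sets ran from 0.04 to 0.84. MGST3 had 2208 against 2585, a log2 difference of -0.23. Another of its probe sets, over the floor on both arrays, read 277 against 255, a difference of 0.12. A further one, under the floor on both, differed by 0.16, so the direction of MGST3 depended on the probe set. At the used probe sets the 3 members of the family differed among themselves by more than 2 units on the log2 scale. With the other probe sets of MGST3 that spread was smaller.

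The 33 members under the floor on both arrays had intensities from 7.20 to 68.2. Their differences ran from -0.40 to 1.13, and those of CYP27B1 and UGT1A6, given above, were the only ones past 2-fold. Beside those already named they were CYP2U1, CYP4F3, CYP4F8, CYP4F11, CYP4X1, CYP4Z1, CYP11A1, CYP11B1, CYP27C1, GSTA1, GSTA3, GSTM3 and GSTM5. A further view of what is measurable comes from olfactory receptor genes, which an epithelial line is not known for: the 95th percentile of their 135 probe sets was 127, and 33 members exceeded it on at least 1 array.

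UGT8 and MGST2, both on chromosome 4, lay among genes that were also higher on the SOX2 knockdown array. Neighbours were counted among genes that reached the floor on at least 1 array, and the others were skipped. Of the 40 such genes nearest to UGT8 in gene order, 20 on each side, 38 were above 0 and 15 at least 2-fold higher, with a median log2 difference of 0.75. Around MGST2, 31 of 40 were above 0 and 12 at least 2-fold higher, with a median of 0.73, and of its direct neighbours SETD7 differed by 1.73 and MAML3 read 396 on the SOX2 knockdown array against 39.5 on the mock array. The mock value lay under the floor in 3 of those 15 genes and in 5 of those 12, which were bound to be higher. The neighbourhoods of UGT8 and MGST2 share 7 genes, so they are not separate. Of all 413 genes of chromosome 4 that reached the floor, 18.6% were at least 2-fold higher, against 8.44% over all chromosomes.

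The other members past 2-fold had neighbours with medians nearer to 0. The median was 0.12 around CYP1B1, 0.14 around CYP3A5, 0.22 around CYP3A7-CYP3A51P, 0.20 around SULT2B1, 0.03 around SULT1C4 and -0.16 around CYP2J2. At least 2-fold higher were 7 of 40 neighbours of CYP1B1, 4 of 37 of CYP3A5, 4 of 37 of CYP3A7-CYP3A51P, 4 of 40 of SULT2B1, 5 of 40 of SULT1C4 and 3 of 40 of CYP2J2. At least 2-fold lower were 0 around CYP1B1, 2 around CYP3A5, 2 around CYP3A7-CYP3A51P, 1 around SULT2B1, 2 around SULT1C4 and 3 around CYP2J2. The neighbourhoods of CYP3A5 and CYP3A7-CYP3A51P share 36 genes. The part of the chromosome 4 neighbourhood in the values of UGT8 and MGST2 was not tested.

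**Figure D3:**
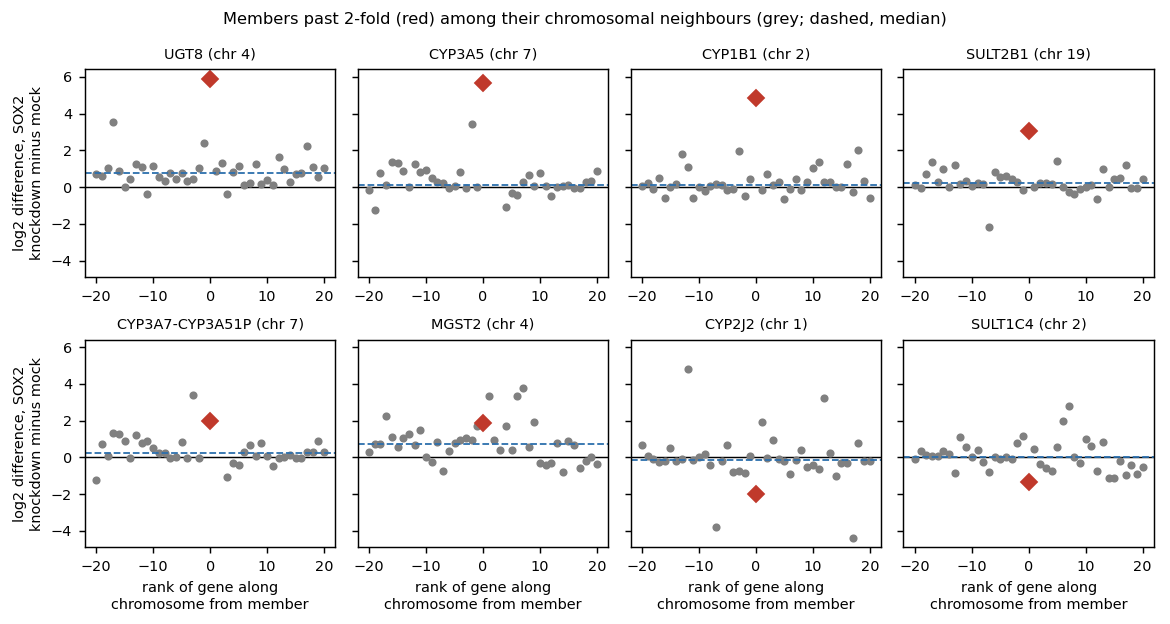
Each panel gives the log2 difference, SOX2 knockdown minus mock, of 1 member past 2-fold (red diamond) and of the non-member genes that reached the floor up to 20 ranks away on either side in chromosome order (grey points), with the dashed line at the median of those neighbours. The neighbours of UGT8 and MGST2 lie mostly above 0, with medians of 0.75 and 0.73, while the medians of the other panels lie between -0.16 and 0.22.

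Genes that regulate these enzymes, feed them electrons or supply their cofactors were read from 5 lists of 67 genes in all. Of these, 57 had a probe set of their own name, 46 reached the floor, 10 were at least 2-fold higher and 4 at least 2-fold lower in the SOX2 knockdown culture, beside the 8.44% and 7.29% over all genes. The genes without such a probe set, the receptor NR1I2 and the factor HNF4A among them, were not analysed here.

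Regulators held most of these calls, with 6 of 16 at least 2-fold higher and 2 at least 2-fold lower, and a median of 0.54. AHR, the receptor for dioxin-like ligands, had 706 on the SOX2 knockdown array against 300.0 on the mock array, a log2 difference of 1.23. AHRR, the repressor that competes with AHR for ARNT and is itself an AHR target, had 91.3 against 764, a log2 difference of -3.06. The AHR targets CYP1B1 and AHRR had differences of opposite sign on this pair of arrays. CYP1B1 reached the floor only through the SOX2 knockdown array, so its direction was bound. AHR activity was not tested. AHR and AHRR have 1 probe set each here.

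The forkhead factors of gut and liver had differences of opposite sign at their brightest probe sets. FOXA1 had 361 on the SOX2 knockdown array against 39.9 on the mock array, at least 5.26-fold higher, and its second probe set 86.7 against 14.4, at least 1.26-fold higher. Both FOXA1 probe sets reached the floor only through the SOX2 knockdown array, so they were bound to be higher there. FOXA2 had 138 against 903, a log2 difference of -2.71, and its other probe sets 65.2 against 370 and 87.0 against 84.8. RXRA, the partner of many nuclear receptors, had 1352 against 386, although its second probe set read 126 against 112. NR1H3, the oxysterol receptor LXR alpha, had 552 against 191. NFE2L2, or NRF2, the factor of the antioxidant response, had 2238 against 1774, a log2 difference of 0.34.

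Among 6 electron donor genes, 1 was at least 2-fold higher and 1 at least 2-fold lower. Cytochrome b5 of the endoplasmic reticulum, CYB5A, had 2742 on the SOX2 knockdown array against 772 on the mock array, a log2 difference of 1.83, with 2 further probe sets at 1.89 and 2.05 and 1 under the floor on both arrays at 38.3 against 22.4. The outer mitochondrial form, CYB5B, had 961 against 3377, a log2 difference of -1.81, and its 3 other probe sets differed by -1.69 to -2.37. The paralogs thus stood in opposite directions at every probe set that reached the floor. POR, the reductase that serves the P450 enzymes of the endoplasmic reticulum, had 439 against 295, a log2 difference of 0.57. FDX1, the mitochondrial ferredoxin, had 1282 against 2077, a log2 difference of -0.70.

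Among 11 cofactor genes, 3 were at least 2-fold higher and 0 at least 2-fold lower, with a median of 0.25. PAPSS2 and PAPSS1, which make the sulfate donor PAPS used by SULT enzymes, had 507 on the SOX2 knockdown array against 79.8 on the mock array and 2003 against 962. The log2 differences were 2.67 for PAPSS2 and 1.06 for PAPSS1, and the other probe sets of PAPSS2 read 228 against 35.7, at least 3.33-fold higher, and 140.1 against 115. PAPSS1 lies on chromosome 4 and is 1 of the 15 neighbours of UGT8 counted above as at least 2-fold higher. The part of that neighbourhood in the value of PAPSS1 was not tested. GCLM, a subunit of the rate-limiting enzyme of glutathione synthesis, had 1648 against 814, a log2 difference of 1.02, with its other probe sets at 0.37 and 0.61. GSS, which completes glutathione, had 1339 against 2082, a log2 difference of -0.64. UGDH, which makes UDP-glucuronic acid for the glucuronidating UGT enzymes, had 1690 against 1312, a log2 difference of 0.37.

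Of 10 further enzymes of drug metabolism, 0 were at least 2-fold higher and 1 at least 2-fold lower, with a median of -0.12. The acetyltransferase NAT1 had 180 on the SOX2 knockdown array against 365 on the mock array, a log2 difference of -1.02. The carboxylesterase CES2 had 360 against 683, and its 3 probe sets ran from -0.92 to -0.79. The epoxide hydrolase EPHX1 had 159 against 83.5, a log2 difference of 0.93, and the thromboxane synthase TBXAS1 had 125 against 81.7. The 3 measured enzymes that reverse or trim conjugates, GUSB, ARSA and GGT1, lay within 0.30 of 0. STS, the steroid sulfatase, did not count as measured, since its brightest probe set by mean lay under the floor on both arrays at 62.7 on the SOX2 knockdown array against 35.9 on the mock array. Others of its probe sets reached the floor on the SOX2 knockdown array alone, with 114 against 13.0, at least 1.67-fold higher, and 68.7 against 27.7, barely over the floor.

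**Figure D4:**
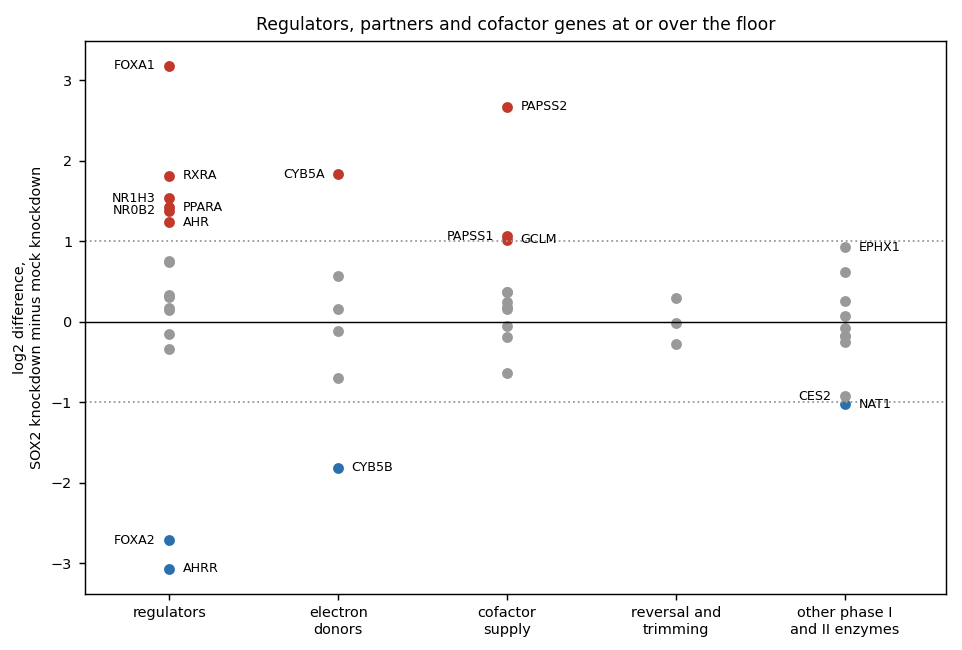
The vertical axis gives the log2 difference, SOX2 knockdown minus mock, of the 46 list genes that reached the floor, with red points at least 2-fold higher, blue points at least 2-fold lower and dotted lines at 2-fold. AHR and AHRR, FOXA1 and FOXA2, and CYB5A and CYB5B lie on opposite sides of 0. FOXA1 reached the floor on the SOX2 knockdown array alone.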

How the data were processed

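Trizol-extracted total RNA of each culture was labelled with biotin by a 3′ transcription kit and read on 1 Affymetrix array, per the labels' protocols. Deposited intensity values are linear and come from RMA run by the authors, per the submitters' processing notes; neither its version and settings nor the return to a linear scale is given there. RMA forces the probe intensities of both arrays to 1 distribution, which hides any change in the total RNA of a cell. The deposited probe set values were close but not identical in distribution, with medians of 68.1 on the SOX2 knockdown array and 69.0 on the mock array. They carry no detection call.

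Of 54675 probe sets, 62 were array controls. The platform annotation gave 1 symbol to 41091 others, several to 1801 and none to 11721; only the first kind named genes. All 83 members matched a RefSeq gene table (GRCh38.p14), used for biotype, chromosome and gene order. GSTT2 was left out with 5 other pseudogenes and 2 antisense genes, since that table calls it a pseudogene. No pseudocount was added before log2, and arrays were not normalized again. Where a gene was dimmer than the floor on 1 array, its fold was taken against the floor. The limit was 2-fold; no test was run. Members and lists were chosen with earlier results of these data known. Every measured member could be named; from each list, up to 3 genes a direction past 1.5-fold were named, and AHR, NFE2L2, POR and UGDH always. Promoters were aligned globally. Python 3.11.15, numpy 2.4.6, pandas 2.3.3, Biopython 1.88 and matplotlib 3.10.9 were used. Alternatives changed the probe set of a gene, the normalization, the floor, the pseudocount and the limit.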

Additional observations from a re-analysis of the deposited data

Results flagged for a closer look

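Probe sets annotated to several genes gave no gene value. In 8 of the 21 such probe sets of these families, without CYP51A1, the SOX2 knockdown array reached the floor and exceeded the mock array, as deposited, by at least 2-fold. Only that direction was flagged. Among gene values over all genes that reached the floor, 8.44% were at least 2-fold higher. Of the 8, 7 belong to the UGT1A locus and are not separate calls. In 4 of the 7 both arrays were at or over the floor. They had 2901 on the SOX2 knockdown array against 75.7 on the mock array, 3289 against 142, 2087 against 108 and 3139 against 180, with log2 differences of 5.26, 4.53, 4.27 and 4.12. In the other 3 the mock value lay under the floor, so the deposited difference is no measure of size. The first had 4376 against 57.0, a log2 difference of 6.26 and at least 63.9-fold higher. The second had 567 against 13.1, a difference of 5.44 but only at least 8.27-fold higher, and the third 148 against 30.7, a difference of 2.27 and at least 2.16-fold higher. The remaining probe set is annotated to CYP3A7 and its readthrough transcript and had 124 on the SOX2 knockdown array against 57.5 on the mock array, a difference of 1.11. Against the floor it was at least 1.81-fold higher, which does not reach 2-fold. None of these differences has a replicate.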

How the results depend on the processing

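With 6 members at least 2-fold higher and 2 at least 2-fold lower as reported, the counts were 3 and 1 when probe sets of the _s_at, _x_at and _a_at kinds were left out, 2 and 0 if both arrays had to reach it, 10 and 4 with a limit of 1.5-fold, and 5 and 0 when the floor was the 75th percentile. The lower count was 1 with a floor from olfactory receptor genes, with values under the floor raised to it, with a pseudocount of 32 and with a limit of 3-fold, and in each of these it was SULT1C4 that dropped out. Among pathway genes, 7 were lower with a limit of 1.5-fold and 4 higher with a limit of 3-fold, against 4 and 10 as reported. Counting the UGT1A probe sets as 1 further gene gave 7 higher members, and taking the probe set with the highest single value of each gene gave 3 lower ones with SULT1C2; both were chosen after seeing the data. Taking the probe set with the smallest difference also gave 3 lower members with SULT1C2, and a floor at the 25th percentile gave 8 higher members with CYP27B1 and UGT1A6. The median difference of members ran from 0.04 to 0.27 over the alternatives. Changes between settings were judged against how far probe sets of 1 gene lie apart, an SD of 0.49 on the log2 scale, which holds no variation between cultures. No paired analysis was possible because each group holds 1 array.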
